A study of Saccharomyces cerevisiae with 8 samples.

Results

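The 5 genes described here are SER3, SER33, SER1, SER2 and SHM2 of budding yeast, which make serine from a glycolytic intermediate and pass it on to glycine. They were chosen by name and not by a threshold on measured values, though earlier results of these data were known. They were found by symbol or systematic name among the 9014 features of the count table. All 5 had enough counts to be tested, among 7543 features tested. In brief, SER3 polyadenylated RNA was higher in the strain lacking both AIR2 and RRP6 than in wild type, a call that ended in some alternatives. It was also higher without RRP6 alone and without both AIR1 and RRP6, short of the threshold. No difference in SER3 among the strains without RRP6 passed. SER33, the gene of the second form of the same enzyme, was lower without AIR2 and RRP6 on the scale used. SER1, SER2 and SHM2 passed no test between strains.

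Serine synthesis branches from glycolysis at phosphoglycerate. Ser3 and Ser33 are isoenzymes that oxidise phosphoglycerate to phosphohydroxypyruvate, Ser1 is the aminotransferase that turns this into phosphoserine, and Ser2 is the phosphatase that releases serine. Shm2, the cytosolic serine hydroxymethyltransferase, splits serine into glycine and a one-carbon unit carried by tetrahydrofolate. SER3 is a textbook case of control by a noncoding RNA: when serine is plentiful, as in rich medium, the activator Cha4 drives transcription of SRG1, which starts upstream of SER3 and reads across its promoter, and nucleosomes laid down behind the polymerase keep activators off SER3. Rrp6 is the nuclear exonuclease of the RNA exosome. Air1 and Air2 are zinc knuckle RNA-binding subunits of TRAMP, the complex that adds short adenosine tails to nuclear RNAs and so marks them for the exosome.

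The locus itself is shown first because the annotated SRG1 RNA runs through the SER3 promoter and into the gene. In the RefSeq annotation of yeast build R64, SER3 (YER081W) is a 1410-base reading frame on the plus strand at chrV:322686-324095. SRG1 is a 551-base noncoding RNA on the same strand at chrV:322212-322762, so it starts 474 bases before the SER3 ATG and overlaps the first 77 bases of the reading frame. The build used for the deposited counts is not given in sources used here, and these positions describe the reference and not the counted intervals. The first sequence runs from 250 bases before the SER3 ATG through the first 50 bases of the gene (chrV:322436-322735, plus strand), with the TATA-box motif TATATAA, 105 bases before the ATG, and the ATG itself in capitals. The second runs from 100 bases before the annotated SRG1 start through its first 50 bases (chrV:322112-322261, plus strand), with a TATATAA 86 bases before that start in capitals.
SER3 start: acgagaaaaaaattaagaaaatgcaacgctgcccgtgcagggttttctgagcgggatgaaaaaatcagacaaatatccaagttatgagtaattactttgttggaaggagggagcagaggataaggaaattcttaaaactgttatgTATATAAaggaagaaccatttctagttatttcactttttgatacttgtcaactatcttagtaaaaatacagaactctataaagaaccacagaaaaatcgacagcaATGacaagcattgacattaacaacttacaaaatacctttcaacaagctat
SRG1 start: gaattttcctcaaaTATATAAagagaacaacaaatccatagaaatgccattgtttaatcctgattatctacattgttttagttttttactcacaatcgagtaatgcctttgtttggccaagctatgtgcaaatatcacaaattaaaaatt

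The paralogs are shown next, because reads from their common stretches cannot be assigned to 1 gene. SER33 (YIL074C) lies on the minus strand at chrIX:221081-222490 and also has 1410 bases. Aligned without gaps, the reading frames were identical at 1162 positions, or 82.4%. The longest run of bases common to both was 56 bases, bases 706 to 761 of each frame, given here in capitals with 20 bases on either side (chrV:323371-323466, plus strand, for SER3 and chrIX:221710-221805, minus strand, for SER33).
SER3 shared run: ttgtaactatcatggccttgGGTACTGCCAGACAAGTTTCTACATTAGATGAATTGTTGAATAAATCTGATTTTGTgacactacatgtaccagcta
SER33 shared run: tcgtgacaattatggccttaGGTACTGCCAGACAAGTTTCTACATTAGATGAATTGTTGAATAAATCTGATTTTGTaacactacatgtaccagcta
Of the 1376 windows of 35 bases in SER3, 48 (3.49%) also occurred in SER33, as did 11 of the 1361 windows of 50 bases. The deposited counts of SER3, SER33 and SRG1 were not whole numbers in any of the 8 libraries, whereas those of SER1, SER2 and SHM2 were whole in all 8. How reads with more than 1 match were divided is not given in the sources used here.

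Polyadenylated RNA was sequenced on the SOLiD platform from 4 strains, with 2 libraries each. The wild type (WT) is BY4742, a MAT-alpha strain with his3D1, leu2D0, lys2D0 and ura3D0, and every other strain carries these 4 alleles too. The rrp6 strain has RRP6 replaced by LEU2 (rrp6::LEU2), the air1 rrp6 strain has air1::bleR besides, and the air2 rrp6 strain has air2::bleR besides. Cultures were started from 1 colony of each strain in YPD, a rich medium, at 30 °C. A growth optical density (OD600) of 2.5 is given for every library. Every strain without RRP6 has the LEU2 marker, so that in comparisons with WT the loss of RRP6 and the gain of LEU2 cannot be told apart, and both double mutants carry bleR, which the rrp6 strain lacks. Nothing in the labels says whether the duplicates are separate cultures. The p-values therefore reflect only how far duplicates lie apart, which may be technical. In bulk RNA, fewer cells expressing a gene and less RNA per cell cannot be told apart. Because only polyadenylated RNA was selected, a change in tailing or capture and a change in RNA amount cannot be told apart either.

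Total counts per library ranged from 13787609 to 124620247, of which the ribosomal DNA features took 51.7 to 82.3%, leaving 4565468 to 22041136 counts outside them. The labels were checked by the deleted genes and the marker. RRP6 counts were 377 and 2131 for WT against 19 to 51 for the 6 libraries of the deletion strains. For AIR1 the air1 rrp6 libraries gave 7 and 2 counts, for AIR2 the air2 rrp6 libraries gave 34 and 21, and LEU2 gave 0 counts in WT against 219 to 559 elsewhere. The 4 MAT-alpha genes examined summed to 8013 to 52441 counts per library, and the a-cell pheromone genes MFA1 and MFA2 had at most 7 and 6 counts, with 175 to 596 over the 5 a-cell genes examined. Levels below are CPM, counts scaled to a library size corrected by the trimmed mean of M-values (TMM), given for replicates 1 and 2 in that order. Fold changes, standard errors (SE), 95% intervals and adjusted p-values come from the quasi-likelihood test of edgeR, with p-values adjusted by Benjamini-Hochberg over all 7543 features, and a call means an adjusted p under 0.05.

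SER3, the repressed member of the isoenzyme pair, rose in the air2 rrp6 strain. Its level was 20.6 and 21.1 CPM for WT, 24.1 and 37.2 for rrp6, 39.3 and 33.8 for air1 rrp6, and 48.5 and 49.8 for air2 rrp6. All 6 libraries without RRP6 lay above both WT libraries, as did those of 18.9% of all features tested. Both air2 rrp6 libraries lay above every other library. The share of all features with that pattern is not given, and no difference in SER3 among the strains without RRP6 passed. The rrp6 duplicates differed 1.54-fold and overlapped the air1 rrp6 libraries. Across the 4 strains SER3 differed by edgeR's quasi-likelihood test (adjusted p = 0.048), the only member to do so, against 5.7% of all features. Its call ended with a covariate for the ribosomal DNA share of each library, and without either library of WT, air1 rrp6 or air2 rrp6.

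Against WT, SER3 in air2 rrp6 was 2.35-fold higher, a log2 fold change of 1.24 (SE 0.23, 95% interval 0.72 to 1.75, adjusted p = 0.0092). In air1 rrp6 the log2 fold change was 0.81 (95% interval 0.30 to 1.32), which missed the threshold (adjusted p = 0.060). With the replicate number as a block in the same model it passed (log2 fold change 0.81, adjusted p = 0.041). In rrp6 the value was 0.55 (95% interval 0.05 to 1.06, adjusted p = 0.17), and it was 0.21 without rrp6 replicate 2 and 0.84 without rrp6 replicate 1. The air2 rrp6 call ended without WT replicate 1 (log2 fold change 1.10, adjusted p = 0.051), without air2 rrp6 replicate 2 (1.22, adjusted p = 0.059) and with a covariate for the ribosomal DNA share (1.54, adjusted p = 0.062), which was 66.9 and 82.3% for WT and 51.7 to 70.8% elsewhere.

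Differences in SER3 among the 3 strains without RRP6 passed no test. SER3 in air2 rrp6 was 1.60-fold above rrp6, a log2 fold change of 0.68 (95% interval 0.17 to 1.19), with an unadjusted p of 0.014 and an adjusted p of 0.9999 by edgeR's quasi-likelihood test. Of all features, 0.0133% were called in that comparison. In air1 rrp6 against rrp6 the log2 fold change was 0.25 (95% interval -0.25 to 0.76), and it was -0.02 without rrp6 replicate 1. Between the double mutants, air1 rrp6 against air2 rrp6, it was -0.43 (95% interval -0.93 to 0.08). These intervals leave room for changes of either sign in the latter 2 comparisons. A difference between the loss of AIR1 and that of AIR2 in SER3 was thus not detected, which does not show that there is none.

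**Figure D1:**
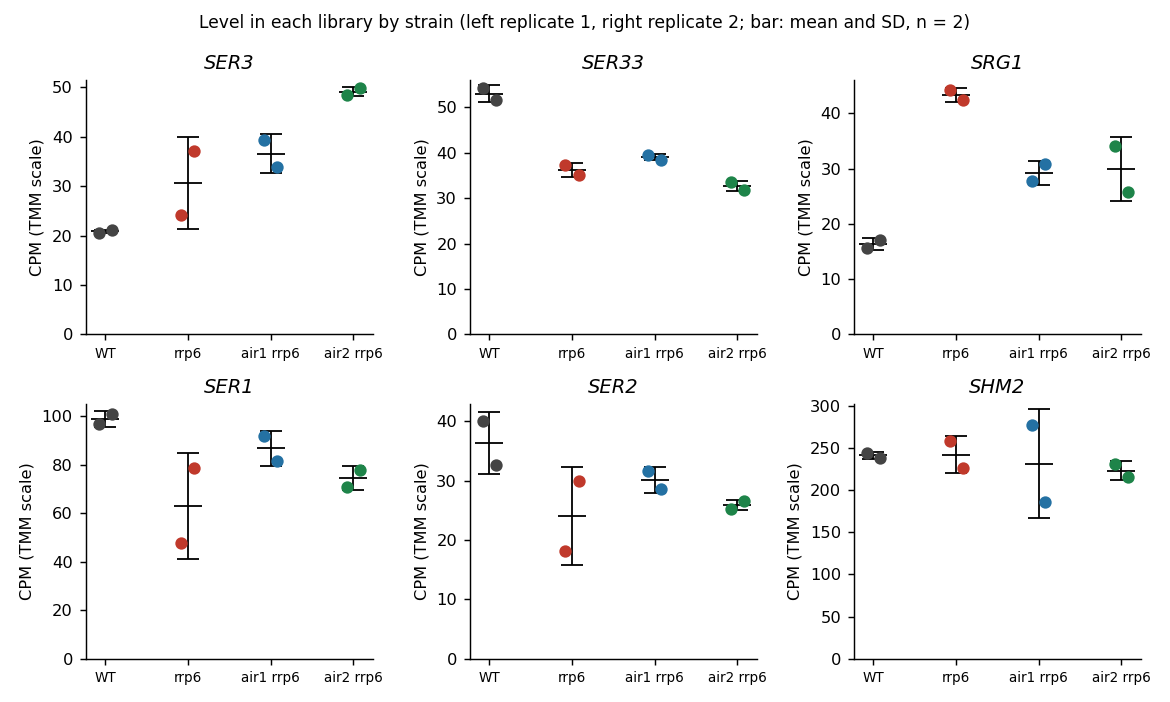
Level of each gene in each library, in CPM on the TMM scale (vertical axes from 0), by strain, with replicate 1 on the left, replicate 2 on the right, and the mean and SD of the 2 libraries. SER3 was between 20.6 and 21.1 CPM for WT and between 48.5 and 49.8 CPM for air2 rrp6, whereas SER33 was on this scale highest in WT, at 54.3 and 51.6 CPM, and SHM2 overlapped between WT and rrp6.

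Polyadenylated RNA of SRG1, the noncoding RNA that starts upstream of SER3, was higher in all 3 strains without RRP6. Its level was 15.6 and 17.1 CPM for WT, 44.3 and 42.4 for rrp6, 27.7 and 30.8 for air1 rrp6, and 34.1 and 25.8 for air2 rrp6. The strain with the highest SRG1 was rrp6, both of whose libraries lay above all others, and the double mutants overlapped each other. No share of all features is given for that pattern, and neither double mutant's difference from rrp6 in SRG1 passed. Against WT it rose 2.65-fold in rrp6 (log2 fold change 1.41, SE 0.20, 95% interval 0.95 to 1.86, adjusted p = 0.0031), a call that held in all 16 alternatives. It rose by a log2 fold change of 0.84 for air1 rrp6 (adjusted p = 0.031) and 0.87 for air2 rrp6 (adjusted p = 0.022). These calls ended with only the 2 strains fitted (adjusted p = 0.068 and 0.055), and with a covariate for the ribosomal DNA share (0.19 and 0.24). The air1 rrp6 call also ended without either library of WT or air1 rrp6 (adjusted p = 0.10 to 0.19), and the air2 rrp6 call without either WT library, air1 rrp6 replicate 1 or air2 rrp6 replicate 1 (adjusted p = 0.066 to 0.17).

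SRG1 and SER3 thus did not have their highest values in the same strain. Against rrp6, SRG1 had a log2 fold change of -0.57 for air1 rrp6 (95% interval -1.01 to -0.12, unadjusted p = 0.018, adjusted p = 0.77) and -0.53 for air2 rrp6 (95% interval -0.98 to -0.09, unadjusted p = 0.023, adjusted p = 0.9999), so neither passed edgeR's quasi-likelihood test. The ratio of SER3 to SRG1 counts within a library does not depend on scaling between libraries. It was 1.32 and 1.24 for WT, 0.54 and 0.88 for rrp6, 1.42 and 1.10 for air1 rrp6, and 1.42 and 1.93 for air2 rrp6. Both rrp6 libraries had the lowest ratios, and both air2 rrp6 libraries had ratios above those of WT. An exact permutation test of 2 libraries against 2 cannot give a two-sided p below 0.33, so these ratios are given without one.

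The annotated overlap limits how far these 2 features can be separated, since reads from the first 77 bases of SER3 could belong to either. With SER3 and SRG1 counts summed into 1 feature, an alternative chosen after seeing the data, the log2 fold change against WT was 0.99 for rrp6 (adjusted p = 0.0089), 0.82 for air1 rrp6 (adjusted p = 0.024) and 1.09 for air2 rrp6 (adjusted p = 0.0061), all past the threshold. For air2 rrp6 against rrp6 it was 0.096, where SER3 alone gave 0.68, and neither passed. Whether the counting used strand could not be told from the sources used here.

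**Figure D2:**
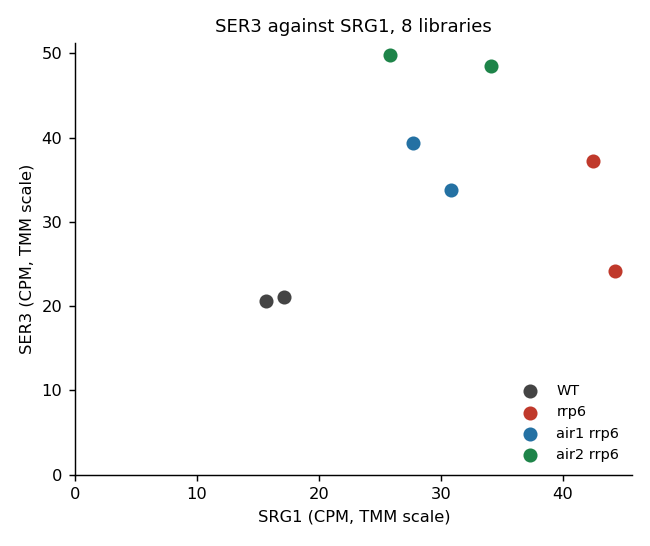
SER3 level against SRG1 level in the 8 libraries, both in CPM on the TMM scale with axes from 0, coloured by strain. WT lies lowest on both axes, rrp6 farthest right at 42.4 and 44.3 CPM of SRG1, and air2 rrp6 highest at 48.5 and 49.8 CPM of SER3.

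SER33, which encodes the second form of phosphoglycerate dehydrogenase, had lower values in every strain without RRP6 on the TMM scale, and slightly higher ones with library totals. Its level was 54.3 and 51.6 CPM for WT, 37.3 and 35.1 for rrp6, 39.5 and 38.5 for air1 rrp6, and 33.5 and 31.8 for air2 rrp6. All 6 libraries without RRP6 lay below both WT libraries, as did those of 9.76% of all features, and duplicates differed by at most 1.06-fold. Against WT it fell 1.62-fold in air2 rrp6 (log2 fold change -0.70, SE 0.17, 95% interval -1.08 to -0.32, adjusted p = 0.029 by edgeR's quasi-likelihood test), but with library totals in place of TMM the sign turned to 0.19 (adjusted p = 0.76). In rrp6 and air1 rrp6 the log2 fold changes were -0.55 (95% interval -0.93 to -0.17, adjusted p = 0.077) and -0.44 (95% interval -0.82 to -0.06, adjusted p = 0.17), short of the threshold.

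The SER33 call in air2 rrp6 ended in 8 of 16 alternatives, among them each single WT or air2 rrp6 library left out (adjusted p = 0.065 to 0.20), air1 rrp6 replicate 2 left out (0.055), the 2 strains fitted alone (0.056) and a covariate for the ribosomal DNA share (0.23). Scaling by library totals moved the median of all features against WT by 0.64 for rrp6, 0.78 for air1 rrp6 and 0.95 for air2 rrp6, against 0.01 to 0.03 with TMM. Relative to those medians SER33 was at -0.59, -0.50 and -0.75, and SER3 at 0.49, 0.75 and 1.20. Taking off the median assumes, as TMM does, that most features are unchanged, so these values are no separate check of the scaling.

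The balance between the isoenzyme genes can be read within a library, free of scaling. The ratio of SER3 to SER33 counts was 0.38 and 0.41 for WT, 0.65 and 1.06 for rrp6, 0.997 and 0.877 for air1 rrp6, and 1.45 and 1.56 for air2 rrp6. Every library without RRP6 had a higher ratio than both WT libraries, and the air2 rrp6 libraries were the only pair in which SER3 counts exceeded SER33 counts in both. The mean ratio over the 6 libraries without RRP6 was 2.67-fold that of WT on a log scale, a log2 difference of 1.42. A two-sided exact permutation test over the 8 libraries (6 against 2) gave p = 0.071, the smallest p that these 28 regroupings allow. The test treats the 6 libraries as interchangeable, though they are duplicates of different strains, so no conclusion is drawn from this p.

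The sum of both genes differed from WT by less than either gene did in each strain without RRP6. SER3 plus SER33 came to 73.9 ± 1.5 CPM (SD, n = 2) for WT, 66.9 ± 7.7 for rrp6, 75.6 ± 4.6 for air1 rrp6 and 81.8 ± 0.26 for air2 rrp6. With both genes counted as 1 feature, an alternative chosen after seeing the data, the log2 fold change against WT was -0.14 for rrp6 (adjusted p = 0.68), 0.03 for air1 rrp6 (adjusted p = 0.95) and 0.15 for air2 rrp6 (adjusted p = 0.70). SER3 made up 27.5 to 29.0% of the sum in the WT libraries and 59.1 to 61.0% in the air2 rrp6 libraries. The part that reads common to both genes play in this shift was not tested.

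**Figure D3:**
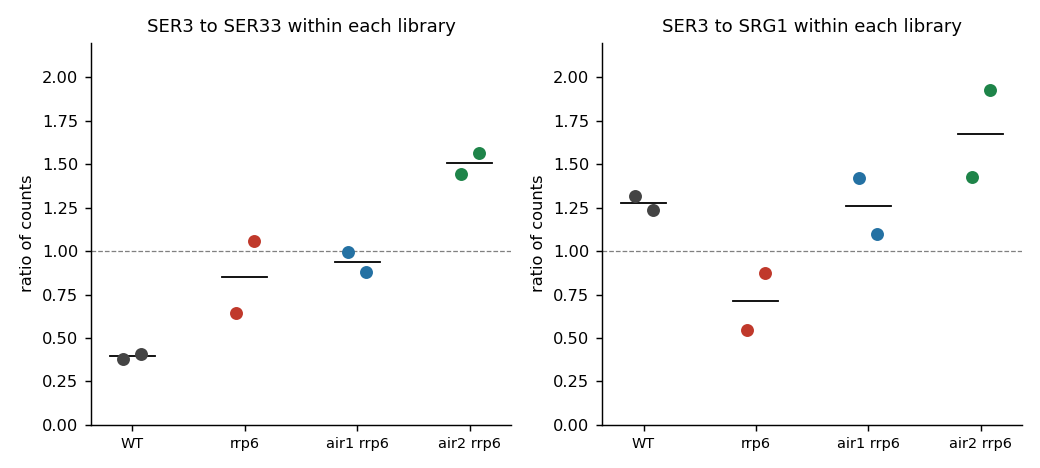
Ratio of SER3 to SER33 counts (left) and of SER3 to SRG1 counts (right) within each library, by strain, on axes from 0, with the mean of the 2 libraries as a line. The left ratio was 0.38 to 0.41 for WT and 1.45 to 1.56 for air2 rrp6, and the right ratio was lowest in rrp6, at 0.54 and 0.88.

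SER1 and SER2, which encode the aminotransferase and the phosphatase of the later steps, passed no test between strains. SER1 was at 96.8 and 101 CPM for WT, 47.6 and 78.7 for rrp6, 92.0 and 81.6 for air1 rrp6, and 71.1 and 78.1 for air2 rrp6. SER2 was at 40.1 and 32.6 CPM for WT, 18.2 and 30.0 for rrp6, 31.7 and 28.5 for air1 rrp6, and 25.3 and 26.6 for air2 rrp6. On the TMM scale, for both genes, all 6 libraries without RRP6 lay below both WT libraries, as did those of 9.76% of all features. In both genes, rrp6 replicate 1 was the lowest of all 8. The rrp6 duplicates differed 1.65-fold in SER1 and 1.64-fold in SER2, while those of the other strains differed by at most 1.23-fold.

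The log2 fold changes of SER1 against WT were -0.65 for rrp6 (95% interval -1.20 to -0.10, adjusted p = 0.14), -0.19 for air1 rrp6 (95% interval -0.74 to 0.36) and -0.41 for air2 rrp6 (95% interval -0.96 to 0.14). Those of SER2 were -0.59 (95% interval -1.15 to -0.04, adjusted p = 0.18), -0.27 (95% interval -0.83 to 0.29) and -0.49 (95% interval -1.05 to 0.07). With library totals the sign turned in air1 rrp6 and air2 rrp6, to 0.53 and 0.51 for SER1 and 0.40 and 0.38 for SER2. Without rrp6 replicate 2 both passed in rrp6, at -1.05 for SER1 (adjusted p = 0.024) and -0.995 for SER2 (adjusted p = 0.034), and without rrp6 replicate 1 they came to -0.33 and -0.28. The value in the rrp6 strain therefore rested on which of its libraries was used.

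SHM2, whose enzyme uses serine to make glycine, had the highest level of the members and no difference that passed. It was at 244 and 239 CPM for WT, 258 and 227 for rrp6, 277 and 186 for air1 rrp6, and 231 and 215 for air2 rrp6. The air1 rrp6 libraries, which differed 1.49-fold, spanned the values of all other libraries. Against WT its log2 fold changes were 0.00 for rrp6 (95% interval -0.52 to 0.53), -0.06 for air1 rrp6 (95% interval -0.59 to 0.47) and -0.11 for air2 rrp6 (95% interval -0.64 to 0.41), and as ratios the intervals ran from 0.70 to 1.44, from 0.67 to 1.38 and from 0.64 to 1.33.

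Counted over the 5 members, edgeR's quasi-likelihood test called 0 for rrp6 against WT, where 10.3% of all features were called, 0 for air1 rrp6 against WT, where 8.54% were called, and 2 for air2 rrp6 against WT, SER3 higher and SER33 lower, where 10.6% were called. Taking an unadjusted p under 0.05 the counts were 4, 2 and 2, beside 23.6, 20.2 and 22.7% of all features. DESeq2 called 0, 0 and 2. The shares of all features are edgeR's, here and for the lists below, and none is given for DESeq2. Over the 5 members the median log2 fold change was -0.55 for rrp6, -0.19 for air1 rrp6 and -0.41 for air2 rrp6, beside 0.01, 0.02 and 0.03 over all features. With library totals the members' median turned to 0.055, 0.53 and 0.51, beside 0.64, 0.78 and 0.95 over all features. In the 3 comparisons among strains without RRP6 both tools called 0 members, 1 having an unadjusted p under 0.05 in edgeR, SER3 in air2 rrp6 against rrp6. In those 3, air1 rrp6 against rrp6, air2 rrp6 against rrp6 and air1 rrp6 against air2 rrp6, 0.0663, 0.0133 and 0.0795% of all features were called, and 5.85, 2.69 and 4.15% had an unadjusted p under 0.05.

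**Figure D4:**
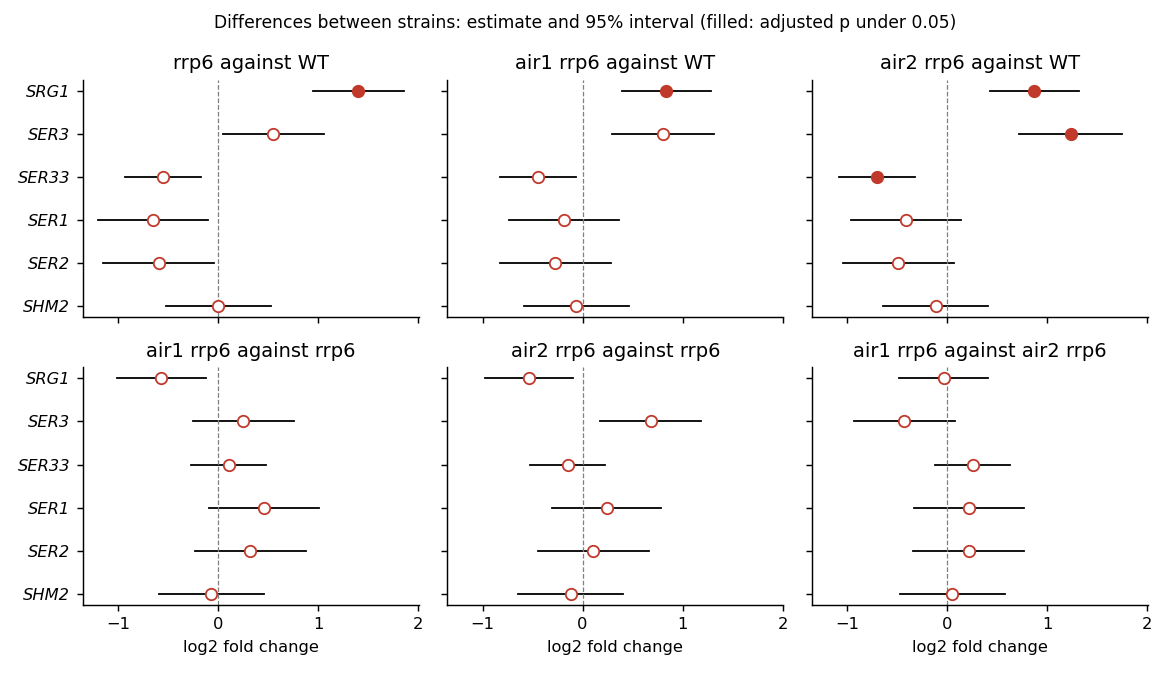
Log2 fold change and 95% interval of SRG1 and the 5 members in each of the 6 comparisons, filled where the adjusted p was under 0.05. SRG1 is filled in all 3 comparisons with WT, SER3 (1.24) and SER33 (-0.70) are filled in air2 rrp6 against WT, where the sign of SER33 turned with library totals, and no point is filled among the strains without RRP6.

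Levels were also put on a per-length scale, as CPM per kilobase of the RefSeq gene, to order the genes. In WT the order from the top was SHM2 (171 ± 3.0, SD, n = 2), SER1 (83.3 ± 2.6), SER2 (39.1 ± 5.7), SER33 (37.6 ± 1.4), SRG1 (29.7 ± 1.9) and SER3 (14.8 ± 0.26). SER2 and SER33 overlapped there, and all other neighbours in this order were separated in both libraries. In air2 rrp6 SER3 stood at 34.8 ± 0.66, above SER2 (27.9 ± 0.99) and SER33 (23.2 ± 0.84), and SRG1 at 54.4 ± 11 overlapped SER1 at 62.8 ± 4.2. In rrp6 SER3 (21.7 ± 6.6), SER33 (25.7 ± 1.1) and SER2 (25.9 ± 8.9) overlapped, and in air1 rrp6 SER3 (25.9 ± 2.8) and SER33 (27.7 ± 0.50) did. Thus SER3 was the lowest of the 5 members per length in both WT libraries and the third highest in both air2 rrp6 libraries.

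Genes around serine were then counted from lists made by pathway membership. Of 17 genes that use serine or make glycine and one-carbon units, edgeR called 1 in each comparison with WT, beside 10.3, 8.54 and 10.6% of all features called for rrp6, air1 rrp6 and air2 rrp6, so the list's count was no higher than that background. The gene called was LPD1, lower in each, which encodes dihydrolipoamide dehydrogenase, a subunit shared by the glycine cleavage system and the pyruvate and oxoglutarate dehydrogenase complexes. LPD1 fell from 89.2 ± 3.0 CPM (SD, n = 2) for WT to 52.9 ± 8.0 for rrp6 (log2 fold change -0.76, adjusted p = 0.031), 51.8 ± 0.30 for air1 rrp6 (-0.78, adjusted p = 0.031) and 55.3 ± 1.2 for air2 rrp6 (-0.69, adjusted p = 0.044). With library totals the last turned to 0.22, the others came to -0.16 and -0.04, and none of the 3 passed. All 3 calls also ended with a covariate for the ribosomal DNA share, with the 2 strains fitted alone, and without either library of WT or air2 rrp6 or air1 rrp6 replicate 2 (adjusted p up to 0.22 over single libraries left out). The median of the 17 genes was -0.16, -0.08 and -0.13 for rrp6, air1 rrp6 and air2 rrp6, beside 0.01, 0.02 and 0.03 over all features.

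**Figure D5:**
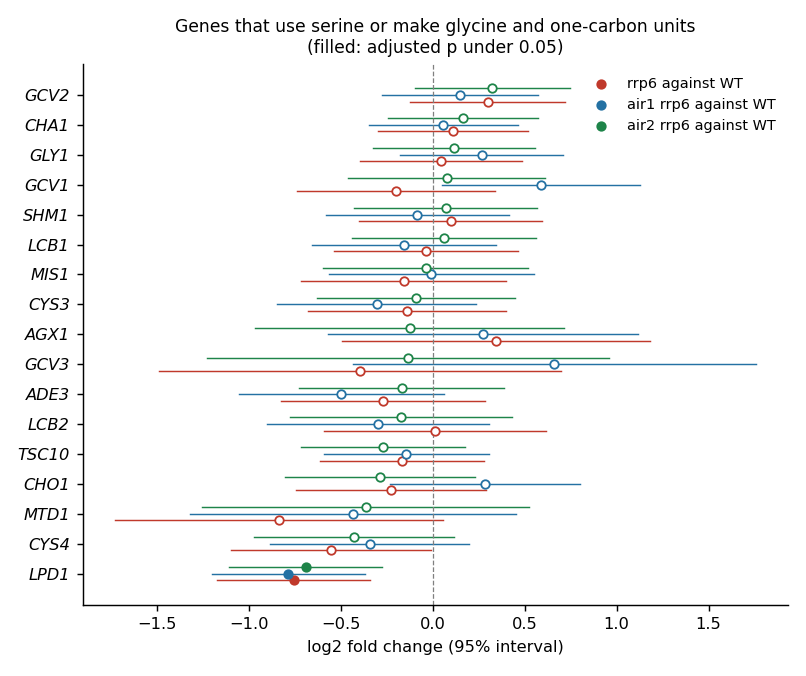
Log2 fold change against WT with its 95% interval for the 17 genes that use serine or make glycine and one-carbon units, in rrp6, air1 rrp6 and air2 rrp6, filled where the adjusted p was under 0.05. LPD1 is filled in all 3, at -0.76, -0.78 and -0.69 (the last turned to 0.22 with library totals), and no other gene is.

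The regulators of the locus gave no call by edgeR. Of all features it called 10.3, 8.54 and 10.6% for rrp6, air1 rrp6 and air2 rrp6 against WT. For lists of 9 genes, 0 calls lie near that share. Among 9 elongation factors known to act in SER3 repression by SRG1 (Spt6, the histone chaperone FACT, Spt2 and the Paf1 complex), edgeR called 0 in each comparison with WT, with log2 fold changes between -0.70 and 0.14. At an unadjusted p under 0.05 there were 1, 3 and 0 for rrp6, air1 rrp6 and air2 rrp6, beside 23.6, 20.2 and 22.7% of all features, and DESeq2 called 0, 1 and 0. Among 9 activators of SRG1 (Cha4 and subunits of SWI/SNF and SAGA) edgeR and DESeq2 both called 0 in each, with 1, 0 and 1 at an unadjusted p under 0.05 and values between -0.73 and 0.38. These are levels of RNA, and the activity of the proteins was not measured.

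Further lists around the pathway gave 0 or 1 call by either tool. For 6 glycolytic enzymes near phosphoglycerate edgeR called 0 in each comparison with WT (2, 2 and 1 at an unadjusted p under 0.05, and 1 each by DESeq2), with medians of -0.29, -0.22 and -0.26. For 15 genes of general amino acid control, GCN4 among them, both tools called 0 (2, 6 and 1 at an unadjusted p under 0.05), with medians of 0.02, 0.40 and -0.03. For 7 tested genes of 8 that are known to be controlled by a noncoding transcript or an alternative start at their own locus, edgeR called 0 (2, 2 and 1 at an unadjusted p under 0.05, and 1 each by DESeq2), with medians of -0.15, -0.26 and -0.08. The medians stand beside 0.01 to 0.03 over all features. Over all features edgeR called 10.3, 8.54 and 10.6%, and 23.6, 20.2 and 22.7% had an unadjusted p under 0.05.

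The annotated neighbours of SER3 did not share its call. AIM9, the next gene upstream, was at 47.3 and 46.1 CPM for WT and between 26.8 and 34.8 CPM in the other libraries, with log2 fold changes against WT of -0.65 (adjusted p = 0.058), -0.53 (adjusted p = 0.14) and -0.49 (adjusted p = 0.15) for rrp6, air1 rrp6 and air2 rrp6. UTP7, next downstream, had -0.01, 0.19 and 0.12. GET2, the gene after it, had 0.56 (adjusted p = 0.095), 0.52 (adjusted p = 0.13) and 0.46 (adjusted p = 0.17). YER079W, beyond AIM9, had -0.99, -0.40 and -1.19 (adjusted p = 0.11 in the last), from levels of 3.3 to 11.8 CPM.

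In the 300 bases around each member's start, from 250 before the ATG to 50 after it, 3 motifs were searched on both strands in build R64. TATATAA occurred in 3 of the 5 members (SER3, SER1 and SHM2) and in 20.4% of 6001 such windows of coding genes. TGACTC, the core of the site bound by Gcn4, the activator of amino acid synthesis genes, occurred in 4 of 5 (SER33, SER1, SER2 and SHM2) and in 7.98% of all windows. CACGTG, the palindrome bound by several helix-loop-helix factors, occurred in 0 of 5 and in 2.92% of all. SHM2 held 2 overlapping TATATAA matches, and matches of different motifs did not overlap. A match describes letters only.

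The 5 features whose profile over the 8 libraries was most like that of SER3 were LYS1, TAD2, HRP1, FLX1 and YPL245W. Likeness was Pearson's r of log2 CPM over 8 libraries, which share the strains, among 4870 features with a mean of at least 5 CPM. The values were 0.96 (Spearman's rho 0.98) for LYS1, a lysine synthesis gene, 0.96 (0.98) for TAD2, which encodes a tRNA deaminase subunit, 0.96 (0.90) for HRP1, which encodes an RNA cleavage factor, 0.95 (0.95) for FLX1, a gene of a mitochondrial carrier, and 0.94 (0.98) for YPL245W. FLX1 was at 8.37 and 7.83 CPM for WT and 23.1 and 21.1 CPM for air2 rrp6, and LYS1 at 9.02 and 9.36 for WT and 14.2 and 14.5 for air2 rrp6. By the same measure SER33 was at -0.87 (Spearman's rho -0.83), SHM2 at -0.27 (-0.33), SER2 at -0.23 (-0.52), SER1 at -0.11 (-0.52) and SRG1 at 0.47 (0.29), the latter 619th in the ranking.

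In the authors' deposited table the log2 ratio of SER3 was 0.57 for rrp6 over WT (p = 0.34), 0.28 for air1 rrp6 over rrp6 (p = 0.45) and 0.68 for air2 rrp6 over rrp6 (p = 0.065). The authors' deposited table gave SRG1 1.48 for rrp6 over WT (p = 0.011). For SER3 the columns of the authors' deposited table headed air1/wt and air2/wt held -0.83 and -1.25, with deposited p-values of 0.044 and 0.0021 whose test and adjustment are not named there. In the authors' deposited table these 2 columns had the opposite sign to the sum of the corresponding other columns in 100% of 6668 and 6650 features with a size above 0.1, so they read as WT over the mutant. With that orientation the authors' deposited table places SER3 above WT in both double mutants.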

How the data were processed

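Duplicate libraries of polyadenylated RNA, selected on poly(U) sepharose per the labels' protocols, were compared between 4 strains. The authors deposited expected counts per feature, unscaled for depth, of which 11.1 to 13.0% per library are not whole at a tolerance of 1e-06. The submitters' processing notes list Bowtie 0.12.7, SAMtools and, in version 2.2.5, edgeR, without roles. Genome build, annotation, strandedness and the treatment of reads with several matches are not given in sources used here. The authors also deposited a table which, per the file headers, has log2 ratios and p-values for 5 comparisons. It was set beside the results and entered no model, and 1 deposited p-value below 0 was not used.

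Counts were rounded, filtered by filterByExpr of edgeR 4.0.16 (R 4.3.3) at a minimum count of 10 and scaled by TMM. All 8 libraries and 7543 features entered 1 robust quasi-likelihood fit with a mean for each strain, so that the 4 strains shared an estimate of spread. Adjusted p-values are Benjamini-Hochberg values over all features, with a threshold of 0.05. Log2 CPM for likeness used a prior count of 2. Duplicates differed by far more than counting error (chi-square per degree of freedom 33.9 to 94.7), so neither library of a pair copies the other. Separate cultures and 2 libraries of 1 culture cannot be told apart this way. Libraries with the same replicate number deviated together from their strain means (r = 0.13 to 0.37 across features in all 6 pairs of strains), so the numbers may mark a pairing that no label describes. The fit without the block is reported, and the blocked value is given where it changes a call. In data simulated for rrp6 against WT with 7543 features, 50 features were changed at each size, all picked above a minimum level in WT. The fit recovered 2% of 1.5-fold, 28% of 2-fold, 96% of 4-fold and 94% of 8-fold changes, with 11 false calls. With another share of features changed these rates may differ.

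The members, the gene lists and the rule for named genes were chosen with earlier results of these data known. The rule named the 5 members, SRG1, the 2 nearest genes on each side of SER3, up to 4 called members of a list, the deleted and marker genes, and the 5 features most like SER3. Alternatives were DESeq2 1.42.0, relative log expression (RLE) scaling in edgeR, library totals, TMM without the 25 ribosomal DNA features and no filter. Others were the 2 strains alone, a replicate block, a covariate for the ribosomal DNA share, and each library left out. Added to these were 2 summed features chosen after seeing the data. Where a strain kept 1 library, it was assumed to vary like the others. Sequences and lengths are RefSeq's, build R64. The exact permutation test used Python 3.11.15.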

Additional observations from a re-analysis of the deposited data

How the results depend on the processing

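Under every alternative but that of SER3 and SER33 summed, SER3 stayed higher than WT in all 3 strains. In air1 rrp6 it passed the threshold with library totals (log2 fold change 1.53), with TMM without ribosomal DNA features (0.82) and without either rrp6 library, and over single libraries left out its value ran from 0.66 to 0.92. With the replicate number as a block it passed as well (0.81), which made 1 member called there, as with library totals and TMM without ribosomal DNA features. The block changed no other call of the members, SRG1 or LPD1. In air2 rrp6 SER3 missed the threshold with a covariate for the ribosomal DNA share (1.54), and ran from 1.10 to 1.26 over single libraries left out. The members called there numbered 1 with library totals, 1 with the 2 strains alone and 0 with the covariate, under which 0 differed among the 4 strains. Over single libraries left out, members called ran from 0 to 2 for rrp6, 0 to 1 for air1 rrp6, 0 to 2 for air2 rrp6 and 0 to 1 among the 4 strains. Summing SER3 with SER33 gave SER3 values of -0.14 for rrp6 and 0.15 for air2 rrp6 against WT, and summing it with SRG1 gave 0.99 for rrp6 and 0.82 for air1 rrp6 against WT and -0.17 for air1 rrp6 against rrp6. That last comparison ran from -0.025 to 0.60 over single libraries left out. The log2 difference from WT in the ratio of SER3 to SER33 ran from 1.30 to 1.56 over its 9 alternatives. Every library without RRP6 lay above both WT libraries in this ratio, so leaving out a single library could not turn its direction.

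Library totals turned the sign of SER33 in rrp6 (0.055), air1 rrp6 (0.28) and air2 rrp6 (0.19) against WT and in air2 rrp6 against rrp6 (0.14). They did so for SER1 in air1 rrp6 (0.53) and air2 rrp6 (0.51), for SER2 in the same strains (0.40 and 0.38), for SHM2 in both (0.59 and 0.78), in air2 rrp6 against rrp6 (0.16) and between the double mutants (-0.19), and for LPD1 in air2 rrp6 (0.22). The median of all features moved with this scaling. The covariate turned SER1 in air1 rrp6 (0.033) and SHM2 in air1 rrp6 (0.067), in air2 rrp6 (0.089) and between the double mutants (-0.022). SHM2 in rrp6, near 0 with TMM, was at -0.0018 with RLE scaling in edgeR and -0.0021 with the replicate block. DESeq2 gave 0.0011 there. Over single libraries left out, values that changed sign ran from -0.077 to 0.65 for SER1 and -0.21 to 0.51 for SER2 in air2 rrp6 against rrp6. For SHM2 they ran from -0.091 to 0.10 for rrp6 and -0.41 to 0.20 for air1 rrp6 against WT, -0.36 to 0.19 for air1 rrp6 against rrp6, and -0.22 to 0.31 between the double mutants. For SRG1 between the double mutants they ran from -0.22 to 0.18. The cause of these changes was not tested. The lowest count behind a value of the members or SRG1 was 194, for SRG1 in WT replicate 1. In simulated counts, 28% of 2-fold changes were recovered for rrp6 against WT, a rate that holds for the share of features changed there.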
